A study of Mus musculus with 6 samples.

Results

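The 7 genes of creatine synthesis, uptake and phosphorylation were followed through 6 bulk RNA sequencing libraries of mouse brown preadipocytes and brown adipocytes. They were chosen by symbol (Ckb, Ckm, Ckmt1, Ckmt2, Gatm, Gamt and Slc6a8), and all 7 were among the 26264 genes listed for each library. The cells were immortalized cells from the stromal vascular fraction of interscapular brown adipose tissue of wild-type Bl6N mice. Per the study's methods they carry SV40 large T antigen, so they are a cultured line and not cells taken from tissue. At 70-80% confluency they were given 5.5 nM FGF8, a paracrine fibroblast growth factor, for 48 h or were left untreated. They were then harvested as preadipocytes (day 0) or after 3 or 9 days of differentiation. The differentiation medium of both groups held insulin, T3, IBMX, dexamethasone, indomethacin and rosiglitazone for 2 days and insulin, T3 and rosiglitazone after that. The sample titles give the last time point as D7, whereas the study names day 9, counted from the end of the FGF8 treatment. It is called day 9 here. Each of the 6 conditions had 1 library, so a difference between a pair of libraries has no replicate check and carries no p-value.

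Creatine is made in 2 steps. Gatm (glycine amidinotransferase) joins arginine and glycine to guanidinoacetate, and Gamt (guanidinoacetate methyltransferase) methylates it with a methyl group from S-adenosylmethionine. Cells also import creatine through Slc6a8, a sodium- and chloride-coupled transporter. Creatine kinases pass phosphate between ATP and creatine: Ckb and Ckm encode the cytosolic brain and muscle types, and Ckmt1 and Ckmt2 the ubiquitous and sarcomeric types between the mitochondrial membranes. In brown and beige fat a futile cycle has been described in which phosphocreatine is made and hydrolysed again, so that ATP is spent as heat beside the uncoupling protein UCP1. Creatine and its kinases are thus studied as a UCP1-independent route of thermogenesis.

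The members lie on 6 chromosomes of the mouse genome (GRCm39, GENCODE M39). Ckb (ENSMUSG00000001270.11) is at chr12:111635789-111639008 on the minus strand, Ckm at chr7:19138701-19157965 on the plus strand, Ckmt1 at chr2:121188195-121195706 on the plus strand and Ckmt2 at chr13:92001503-92025608 on the minus strand. Gatm is at chr2:122424948-122441799 and Gamt (ENSMUSG00000020150.15) at chr10:80089960-80096860, both on the minus strand, and Slc6a8 (ENSMUSG00000019558.16) is at chrX:72716728-72726108 on the plus strand. The 250 bases before the start of the canonical transcript are shown for the 4 members with enough counts to compare, because these carry the differences described here. They were read 5′ to 3′ on the strand of the gene from GRCm39, at chr12:111638773-111639022 (minus strand) for Ckb, chr2:122441800-122442049 (minus strand) for Gatm, chr10:80096861-80097110 (minus strand) for Gamt and chrX:72716478-72716727 (plus strand) for Slc6a8. Most of the Ckb window overlaps the longer leading exon of 1 other annotated Ckb transcript. Capitals mark matches to any of 7 motifs searched on both strands: TATAAA (the TATA box), CCAAT (the CCAAT box), GGGCGG (the GC box), AAGGTCA (a nuclear receptor element), TGACGTCA (the cAMP response element), CCGGAAG (an ETS element) and CACGTG (an E-box). None of the marked matches overlap each other.
Ckb: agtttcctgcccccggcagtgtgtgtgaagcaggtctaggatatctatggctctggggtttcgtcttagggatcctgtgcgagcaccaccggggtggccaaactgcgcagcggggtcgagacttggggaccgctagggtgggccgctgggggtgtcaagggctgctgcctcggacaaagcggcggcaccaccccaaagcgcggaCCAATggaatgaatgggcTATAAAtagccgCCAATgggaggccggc
Gatm: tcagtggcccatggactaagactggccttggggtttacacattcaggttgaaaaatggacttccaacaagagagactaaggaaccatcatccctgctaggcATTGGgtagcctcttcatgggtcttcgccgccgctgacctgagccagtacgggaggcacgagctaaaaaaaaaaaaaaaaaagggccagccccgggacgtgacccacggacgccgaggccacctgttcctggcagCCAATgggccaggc
Gamt: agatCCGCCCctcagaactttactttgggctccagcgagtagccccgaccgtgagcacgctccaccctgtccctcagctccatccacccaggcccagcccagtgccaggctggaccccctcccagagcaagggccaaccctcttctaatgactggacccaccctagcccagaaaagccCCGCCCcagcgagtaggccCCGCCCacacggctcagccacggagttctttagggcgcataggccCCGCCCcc
Slc6a8: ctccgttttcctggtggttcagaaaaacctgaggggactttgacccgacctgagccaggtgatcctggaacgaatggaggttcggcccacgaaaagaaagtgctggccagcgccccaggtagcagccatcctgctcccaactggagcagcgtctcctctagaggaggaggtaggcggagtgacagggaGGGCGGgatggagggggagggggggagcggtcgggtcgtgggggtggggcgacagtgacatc

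Ckb and Gatm shared the CCAAT box, and Gamt and Slc6a8 the GC box. Ckb had a TATAAA beginning 28 bases before its start with a CCAAT on each side of it, at 46 and 16 bases. Of 21770 promoters of protein-coding genes of the same length, 11.9% held TATAAA and 36.5% held CCAAT. Gatm had 2 CCAAT, at 149 bases on the minus strand, read as ATTGG in the printed strand, and at 14 bases. Gamt held neither motif but had GGGCGG 4 times on the minus strand, read as CCGCCC in the printed strand, at 246, 72, 53 and 8 bases. Slc6a8 had 1 GGGCGG, at 62 bases, and this motif was in 36.3% of all promoters. The nuclear receptor element (3.93% of promoters), the cAMP response element (1.69%), the ETS element (6.89%) and the E-box (6.26%) matched none of the 4. These are matches of letters and no evidence of binding, and no match says only that the letters are missing from these 250 bases.

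The libraries held between 16403254 and 38551551 counts, the fewest in the untreated day 0 library. Counts were set on a common scale with DESeq2 median-of-ratios size factors and are called normalized counts. Most markers fitted the labels. Adipocyte markers were at least 2-fold higher at day 9 than at day 0 for 10 of 10 genes in both groups, and brown adipocyte markers for 8 of 9. Of all genes, 23.7% were higher untreated and 26.1% after FGF8. The remaining brown marker, Dio2, was at least 2-fold lower in both groups. It went from 304 to 26.3 normalized counts untreated and from 60.2 to 18.7 after FGF8. Adipoq, an adipokine, had 1 count at day 0 without FGF8 and 0 with it, and more than any member at day 3 and 9, with 21274 and 18265 normalized counts untreated and 33237 and 22015 after FGF8. Ucp1 had 0, 319 and 91306 normalized counts in the untreated and 1328, 4287 and 99587 in the FGF8-treated cells at day 0, 3 and 9. Of 14 skeletal muscle markers, 5 were at 0 in every library, the myogenic regulators Myod1, Myf5 and Myf6 among them. Others had counts: Actn3, a sarcomeric actinin, had 44 to 91, and Acta1, skeletal actin, had 0 at day 0 and 54 and 60 at day 9. In bulk libraries, fewer cells of a type and less RNA per cell cannot be told apart.

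Ckb, the cytosolic brain type, supplied nearly all creatine kinase counts of these cells. It had 85, 269 and 935 counts in the untreated libraries at day 0, 3 and 9, and 22, 317 and 848 counts in the FGF8-treated ones. On the normalized scale these were 125, 342 and 664 counts untreated and 28.2, 223 and 689 after FGF8. Its level was higher at each later day in both groups, and the FGF8-treated library was the lower one at day 0 and day 3 but not at day 9. Among the counts of the 4 kinases, Ckb made up 96.6% in the untreated day 0 library (95% Clopper-Pearson interval 90.4 to 99.3%) and 95.7% in the FGF8-treated one (78.1 to 99.9%). At day 9 its share was 97.8% (96.7 to 98.6%) untreated and 99.2% (98.3 to 99.7%) after FGF8. These shares compare counts per gene without a correction for length. Exons of Ckb share 231 bases with those of Trmt61a on the opposite strand, none of them in the canonical transcript. Trmt61a had 74 to 336 counts, and 152 against 22 for Ckb in the FGF8-treated day 0 library. The part of Trmt61a reads in the Ckb counts was not tested. All intervals and floors here cover counting error only.

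Ckm, the muscle type, had 0 counts in each of the 6 libraries, below the floor of 3 counts. Ckmt2, the sarcomeric mitochondrial type, had 0, 1 and 0 counts untreated and 0, 1 and 1 counts after FGF8. Neither muscle-type kinase was detectable at this depth. Ckmt1, the ubiquitous mitochondrial type, had 3, 7 and 21 counts in the untreated libraries and 1, 10 and 6 counts in the FGF8-treated ones. At day 9 that is 14.9 against 4.88 normalized counts, 3.06-fold lower after FGF8 with a 95% counting interval of 1.19 to 9.25. The pair's mean was under the 20 normalized counts required for a 2-fold call, so Ckmt1 enters no count of differences. Ckmt1 exons overlap those of Ppip5k1 on the opposite strand over 13.1% of the canonical transcript, and Ppip5k1 had 531 to 5635 counts, while the strand setting of the counting was not given in the sources used here. Reads of the 2 genes in that stretch therefore cannot be told apart.

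**Figure D1:**
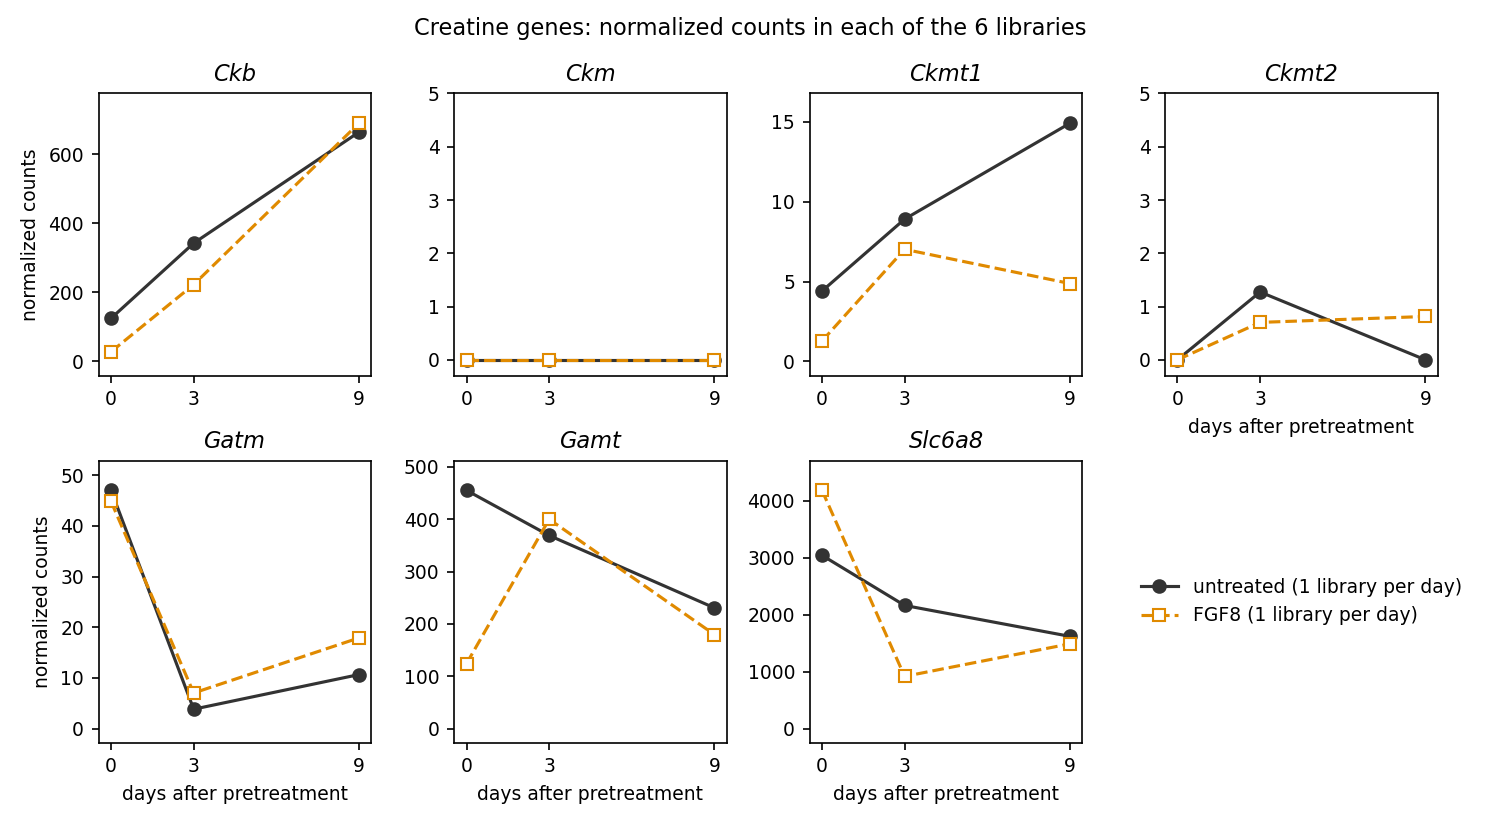
Normalized counts (vertical axis, own linear scale for each gene) of the 7 genes against days after the pretreatment, with 1 library per point, filled circles for untreated and open squares for FGF8-treated cells. Ckb goes from 125 to 664 untreated and from 28.2 to 689 after FGF8, Ckm stays at 0, and Slc6a8 at day 3 has 915 after FGF8 against 2161 untreated.

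Of the synthesis genes, Gatm, which catalyses the committed step, was the less abundant. It had 32, 3 and 15 counts at day 0, 3 and 9 in the untreated libraries and 35, 10 and 22 counts in the FGF8-treated ones. The normalized counts were 47.0, 3.82 and 10.6 untreated and 44.8, 7.02 and 17.9 after FGF8. Its high point was day 0 and its low point day 3 in both groups. Gamt, which completes the synthesis, had 310, 290 and 325 counts untreated and 97, 570 and 221 counts after FGF8. The normalized counts were 455, 369 and 231 untreated and 124, 400.1 and 179.7 after FGF8. Untreated cells had less Gamt at each later day, whereas in FGF8-treated cells day 3 was the highest of the 3 days and day 0 the lowest. Exons of Gamt overlap those of Ndufs7, a complex I subunit on the opposite strand, over 1325 bases or 26.4% of the canonical transcript. Ndufs7 had 459, 2616 and 8682 counts untreated and 533, 8335 and 10414 after FGF8, so its counts were higher at each later day in both groups while those of Gamt were not. The part of Ndufs7 reads in the Gamt counts was not tested.

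Slc6a8, the importer, had the most counts of the 7 members in every library. Its counts were 2070, 1698 and 2280 in the untreated libraries at day 0, 3 and 9 and 3266, 1304 and 1829 in the FGF8-treated ones. The normalized counts were 3041, 2161 and 1618 untreated and 4181, 915 and 1487 after FGF8. The FGF8-treated day 0 library was the highest of the 6 and the FGF8-treated day 3 library the lowest. The lncRNA Gm32261, which lies opposite Slc6a8 and overlaps 4.15% of its canonical transcript, had 9 to 25 counts.

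The order of the members was compared per kilobase of union exon length. Slc6a8 led in all 6 libraries, with 580, 412 and 309 normalized counts per kilobase untreated and 797, 175 and 284 after FGF8. Ckb stood at 38.8, 106 and 206 normalized counts per kilobase untreated and at 8.75, 69.1 and 214 after FGF8. Gamt stood at 82.1, 66.6 and 41.6 untreated and at 22.4, 72.1 and 32.4 after FGF8. Gamt was thus above Ckb at day 0 and below it at day 9 in both groups. At day 3 Ckb was above Gamt in the untreated library, and in the FGF8-treated library their 95% Poisson intervals overlapped. Gatm was at 0.568 to 6.99 and Ckmt1 at 0.252 to 2.93, and their intervals overlapped each other at day 3 and 9 in both groups. Gatm and Ckb overlapped in the FGF8-treated library at day 0. Per kilobase of the canonical transcript, a length added after seeing the data, Gamt and Ckb overlapped at day 0 in both groups. By that length Ckb was above Gamt in the FGF8-treated day 3 library, at 151 (135 to 169) against 79.6 (73.2 to 86.4). The position of Slc6a8 over Ckb at day 9 depended on the length used. By the canonical length Ckb was at 451 and Slc6a8 at 407 in the untreated day 9 library with overlapping intervals, and at 468 against 374 in the FGF8-treated one with intervals that did not overlap.

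**Figure D2:**
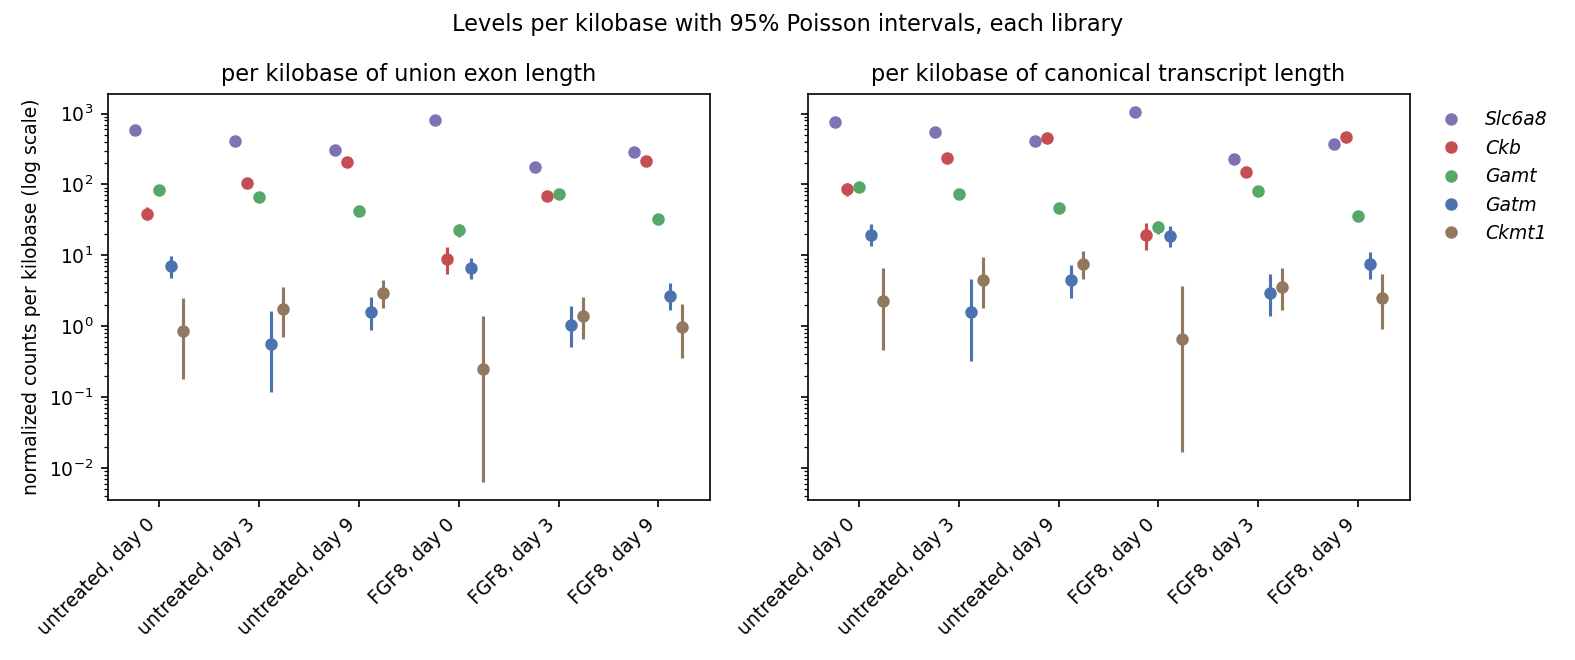
Normalized counts per kilobase (log scale) of the 5 members with more than 1 count in a library, for each of the 6 libraries, per kilobase of union exons (left) and of the canonical transcript (right), with 95% Poisson intervals as bars. On the left Slc6a8 is at the top in all 6 libraries, and on the right Ckb passes it at day 9, with 451 against 407 untreated and 468 against 374 after FGF8.

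The comparison of FGF8-treated with untreated cells at day 0 asks what 48 h of the factor do in preadipocytes. Ckb and Gamt were lower after FGF8 and Slc6a8 was somewhat higher. The log2 fold change, taken as a difference of log2(normalized count + 1), was -2.11 for Ckb (95% exact binomial interval of the count ratio -2.90 to -1.46), a 4.43-fold lower level. For Gamt it was -1.87 (-2.22 to -1.54), 3.67-fold lower. Slc6a8 was 1.38-fold higher, with a log2 fold change of 0.46 (0.38 to 0.54), under the 2-fold rule. Gatm differed by -0.068 (-0.80 to 0.67). In a pair of libraries whose mean for a gene reached 20 normalized counts, a difference of 2-fold or more was counted. By this rule 0 of 4 members were higher and 2 were lower, and of all 12657 genes that reached the mean 7.27% were higher and 10.8% lower. The median log2 fold change was -0.97 over the 4 members and 0.054 over all genes. Markers of preadipocytes, the cells studied here, and of other cell types moved in the same comparison. The summed normalized counts of 6 preadipocyte markers went from 132904 to 33693, with Pdgfra from 68261 to 9680, Ly6a from 28641 to 1516 and Cd34 from 15084 to 10476. Of the 6, 4 were at least 2-fold lower, and Thy1 went the other way, from 2773 to 4427. Pdgfra and Thy1 were picked after their values were seen. Those of 4 endothelial markers went from 1620 to 71.7, mainly through Kdr, a VEGF receptor, at 1288 and 7.68, and Tek, the angiopoietin receptor, at 326 and 42.2. Sums for 14 muscle markers were 197 and 101 and for 8 neural and glial markers 292 and 242. Those for 6 macrophage markers were 118 and 44.8, with Adgre1 at 0 in every library. Among the macrophage markers Csf1r went from 45.5 to 5.12, whereas Cd68 stood at 39.7 and 35.8 (-0.14, -0.96 to 0.67). Whether these marker differences bear on the creatine genes was not tested.

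At day 3 and 9 the question is what is left of the FGF8 pretreatment during differentiation. At day 3 the largest difference among the members was in the transporter. Slc6a8 was 2.36-fold lower in FGF8-pretreated cells, with a log2 fold change of -1.24 (-1.35 to -1.13). Ckb was 1.54-fold lower (-0.62, -0.86 to -0.38) and Gamt differed by 0.12 (-0.090 to 0.33), an interval that holds 0. Of the 3 members past the minimum, 0 were at least 2-fold higher and 1 was at least 2-fold lower, against 3.80% and 12.1% of 12892 genes. Their median was -0.62 and that of all genes 0.081. Preadipocyte markers summed to 39307 untreated and 10721 after FGF8, and endothelial markers to 210 and 34.4.

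By day 9 the 3 members past the minimum differed by less than 2-fold between the 2 groups. Ckb differed by 0.055 on the log2 scale (-0.081 to 0.19), a counting interval that leaves out changes over 1.14-fold either way. Slc6a8 was 1.09-fold lower (-0.12, -0.21 to -0.033) and Gamt 1.28-fold lower (-0.36, -0.61 to -0.11). Of the 3 members past the minimum, 0 were at least 2-fold higher and 0 at least 2-fold lower, beside 1.12% and 8.74% of 13070 genes. Their median was -0.12 and that of all genes 0.083. Gatm, with 22 counts after FGF8 and 15 untreated, was under the minimum, at 0.70 (-0.26 to 1.80), as was Ckmt1, at -1.44 (-3.21 to -0.25). The preadipocyte markers still summed to 7142 after FGF8 and 31022 untreated.

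**Figure D3:**
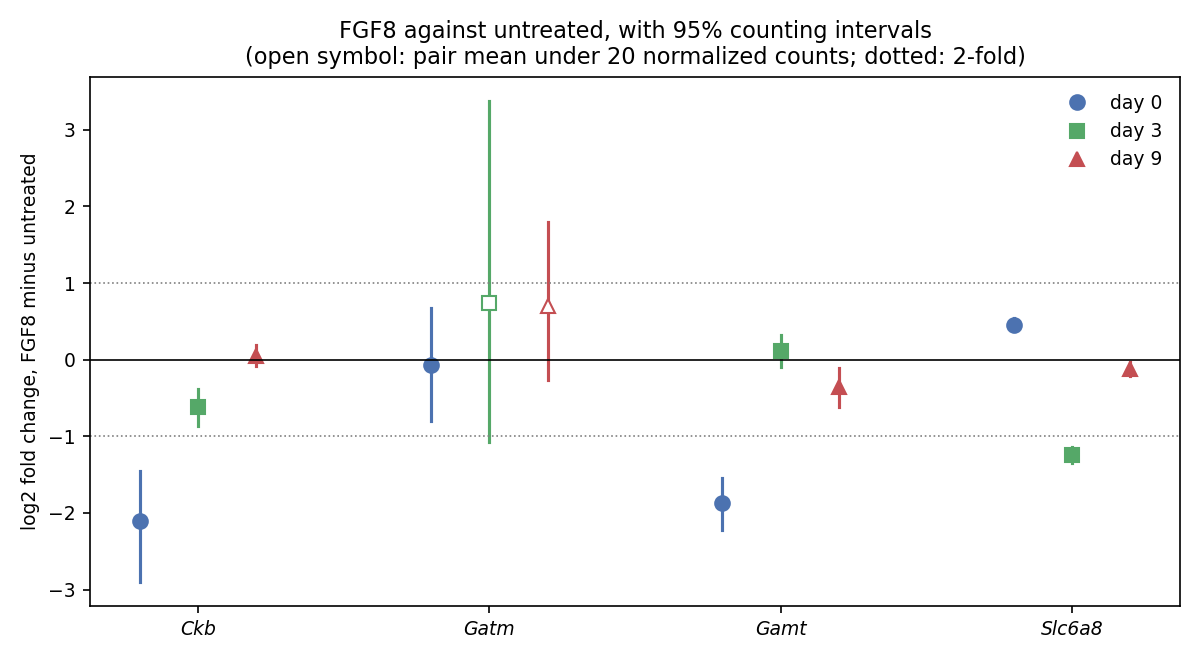
Log2 fold change of FGF8-treated against untreated cells (vertical axis) for the 4 members with enough counts, at day 0 (circles), day 3 (squares) and day 9 (triangles), with 95% counting intervals as bars and open symbols for pairs with a mean under 20 normalized counts. Ckb moves from -2.11 at day 0 towards 0.055 at day 9, and Slc6a8 is above 0 at day 0 and at -1.24 at day 3.

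To test what FGF8 did on all 3 days alike, edgeR's quasi-likelihood test was used with day as a block and 2 residual degrees of freedom. Of the 4 members tested, 0 passed an adjusted p-value of 0.05 (Benjamini-Hochberg over 14569 genes), 0 had an unadjusted p under 0.05, and DESeq2 called 0. Of all genes, 1.27% passed. For Ckb the shared log2 fold change was -0.81 (SE 0.442, edgeR adjusted p = 0.327), lower in 2 of 3 pairs. Gamt was at -0.70 (SE 0.427, edgeR adjusted p = 0.372), Slc6a8 at -0.31 (SE 0.351, edgeR adjusted p = 0.621) and Gatm at 0.41 (SE 0.405, edgeR adjusted p = 0.577), each with its direction in 2 of 3 pairs. The median was -0.51 over the members and 0.040 over all genes. In this model a response that differs from day to day counts as error, and over the alternatives the adjusted p of a member stayed between 0.108 and 1.0.

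The course of differentiation was read within each group. In untreated cells Ckb was 2.74-fold higher at day 3 than at day 0 (log2 fold change 1.45, 1.10 to 1.82) and 5.32-fold higher at day 9 than at day 0 (2.40, 2.09 to 2.75). In FGF8-treated cells it was 7.90-fold higher at day 3 (2.94, 2.36 to 3.68) and 24.5-fold higher at day 9, with a fold interval of 16.1 to 39.3. The day 0 library of FGF8-treated cells, with 22 counts, is the base of both folds. Between day 3 and day 9 Ckb differed 1.94-fold untreated and 3.10-fold after FGF8.

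Gatm went the other way. It was 4.41-fold lower at day 9 than at day 0 in untreated cells (interval 2.32 to 8.77) and 2.51-fold lower in FGF8-treated cells (1.43 to 4.48). At day 3 untreated cells had 3 counts, a ratio to day 0 of 12.3-fold lower with a counting interval of 3.85 to 62.8, and FGF8-treated cells were 6.38-fold lower (3.09 to 14.5). Slc6a8 was 1.88-fold lower at day 9 than at day 0 untreated and 2.81-fold lower after FGF8. It was 4.57-fold lower at day 3 than at day 0 in FGF8-treated cells and then 1.62-fold higher at day 9 than at day 3, while in untreated cells it was lower at each later day. Gamt was 1.97-fold lower at day 9 than at day 0 untreated. In FGF8-treated cells it was 3.22-fold higher at day 3 than at day 0 and 2.23-fold lower at day 9 than at day 3.

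Counted by the 2-fold rule, 1 of 4 members was higher and 1 lower at day 3 against day 0 in untreated cells, where 19.5% of genes were higher and 15.5% lower. At day 9 against day 0 the members' counts were again 1 and 1, beside 23.7% and 19.5% of genes. Neither of these counts stands out from shares of that size. In FGF8-treated cells 2 were higher and 2 lower at day 3 against day 0 (24.1% and 22.0% of genes), and 1 was higher and 2 lower at day 9 against day 0 (26.1% and 22.6%). Between day 3 and day 9, 0 of 3 passed in untreated cells (8.77% higher and 4.42% lower among all genes), and 1 was higher and 1 lower in FGF8-treated cells (8.16% and 5.40%). The medians at day 9 against day 0 were -0.94 untreated and -0.37 after FGF8, and those of all genes -0.033 and -0.029. With libraries scaled by total counts, which lowers the median of all genes by 0.18 in the untreated day 9 against day 0 comparison, the log2 fold changes there became -1.16 for Gamt and -1.09 for Slc6a8, past 2-fold.

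With the 2 groups standing in for replicates of a day, edgeR called Ckb and Gatm between days. At day 9 against day 0 Ckb rose by a log2 fold change of 3.43 (SE 0.583, edgeR adjusted p = 0.00879), and it passed under all 5 alternatives, with adjusted p up to 0.0220. Gatm fell by 1.68 (SE 0.465, edgeR adjusted p = 0.0325) but passed under 1 of 5 alternatives only, with adjusted p up to 0.0725. Slc6a8, at -1.20 (SE 0.424, edgeR adjusted p = 0.0634), did not pass. DESeq2 called it with an adjusted p of 0.0103, and so did edgeR without the day 3 libraries, with an adjusted p of 0.0241. Gamt was at -0.30 (SE 0.517, edgeR adjusted p = 0.645). The shares called among 14569 genes were 29.2% higher and 24.8% lower. The median was -0.75 over the members and 0.044 over all genes.

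At day 3 against day 0 Gatm fell by 3.01 on the log2 scale (SE 0.524, edgeR adjusted p = 0.0119) and passed under all 5 alternatives. Ckb rose by 2.10 (SE 0.556, edgeR adjusted p = 0.0335) and passed under 3 of 5: the adjusted p was 0.0818 without the treatment block and 0.0525 without the day 9 libraries. Slc6a8 was at -1.25 (SE 0.435, edgeR adjusted p = 0.0685; 0.00756 with DESeq2) and Gamt at 0.68 (SE 0.522, edgeR adjusted p = 0.326). Of all genes 26.2% were called higher and 19.8% lower. At day 9 against day 3 edgeR called 0 of the 4 members, with 0 at an unadjusted p under 0.05 and 0 called by DESeq2, and 0.0686% of all genes. Ckb was at 1.33 there (SE 0.518, edgeR adjusted p = 0.234), and its unadjusted edgeR p of 0.05001 lay at the threshold. With DESeq2 the unadjusted p of Ckb was 0.0123 and the adjusted p 0.0977. Without the day 0 libraries its edgeR adjusted p was 0.00861 and that of Gamt 0.0230.

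Genes next to the creatine pathway were taken from lists grouped by known role. These lists were chosen with earlier results of these data known, so their counts are a description and no independent test. The phosphatase Alpl, known to hydrolyse phosphocreatine in thermogenic fat cells, had 29, 201 and 4602 counts untreated and 37, 813 and 3087 counts after FGF8. Its normalized counts were 42.6, 256 and 3267 untreated and 47.4, 571 and 2510 after FGF8. It was higher at each later day in both groups, and at day 3 it was higher after FGF8 by a log2 fold change of 1.15 (0.93 to 1.39) while at day 9 it stood at -0.38 (-0.45 to -0.31). The shared rise of Alpl at day 9 against day 0 was 6.07 (SE 0.465, edgeR adjusted p = 0.00194). Its shared FGF8 effect was 0.29 (SE 0.323, edgeR adjusted p = 0.615). The creatine exporter Slc16a12 had 0 to 12 counts a library.

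Mitochondrial creatine kinases draw ATP from the ADP/ATP carriers and work beside the porins of the outer membrane. The 5 carriers and porins had medians of 0.50, 0.83 and 0.37 for FGF8 against untreated at day 0, 3 and 9, and 0 of 5 were 2-fold different on any of the 3 days. Of all genes, 7.27%, 3.80% and 1.12% were higher and 10.8%, 12.1% and 8.74% lower on these days. Vdac2, a porin, had 4182, 6964 and 10452 normalized counts untreated and 6416, 12662 and 14221 after FGF8, and was higher after FGF8 on each day, by 0.62, 0.86 and 0.44. Vdac3, another porin, was higher by 0.78, 0.60 and 0.37. Slc25a4, an ADP/ATP carrier, had 14351, 8909 and 15310 normalized counts untreated and 12362, 13526 and 18771 after FGF8. No shared FGF8 effect passed among the 5, and 4 of them (Slc25a5, Vdac1, Vdac2 and Vdac3) rose at day 9 against day 0 in the edgeR test, where 29.2% of all genes rose.

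The list for arginine and glycine supply held 14 genes, among them Arg1, Arg2, Oat and Odc1, which use arginine or ornithine. Of the 14, 13 passed the minimum at day 0. After FGF8, 8 of these 13 were at least 2-fold higher and 0 lower, beside the 7.27% and 10.8% of all genes. The median of the 13 was 1.96. Shmt2, which makes glycine from serine in mitochondria, had 1316 normalized counts untreated and 9453 after FGF8 (2.84, 2.74 to 2.95). Slc7a1, a transporter of arginine, had 1056 and 6534 (2.63, 2.52 to 2.74). The other 6 were the serine and glycine genes Phgdh, Psat1, Psph and Slc6a9, the argininosuccinate synthase Ass1 and the ornithine decarboxylase Odc1, at 1.86 to 2.11. In the same libraries Gatm, which uses both amino acids, differed by -0.068. At day 3 and 9, 0 of 12 were higher and 2 were lower, Ass1 and the arginine transporter Slc7a2, with medians of 0.55 and 0.23. Of all genes 12.1% and 8.74% were lower on these days. The shared FGF8 effect was called for 0 of 13, with Shmt2 at 1.45 (SE 0.475, edgeR adjusted p = 0.172) and Slc7a1 at 1.15 (SE 0.490, edgeR adjusted p = 0.242). At day 9 against day 0, 1 of 13 rose (Odc1) and 3 fell (Arg1, Ass1 and Oat), near the 24.8% of all genes that fell and below the 29.2% that rose.

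The methyl donor cycle, which feeds Gamt, had 1 of 5 genes higher at day 0 after FGF8 and 0 on the other days (7.27%, 3.80% and 1.12% of all genes at day 0, 3 and 9), with medians of 0.51, 0.36 and 0.34. That gene was Mtrr, the reductase that reactivates methionine synthase, at 1.05 (0.89 to 1.22), and Ahcy, which clears S-adenosylhomocysteine, was at 0.44, 0.45 and 0.34. Among 6 adenylate kinases, a further route of phosphate transfer, Ak4 and Ak6 were at least 2-fold higher at day 0 after FGF8 and 0 were lower, beside 7.27% and 10.8% of all genes. Ak4, a mitochondrial form, had 123, 200 and 3174 normalized counts untreated and 518, 1386 and 3880 after FGF8. It was higher by 2.06, 2.79 and 0.29 at day 0, 3 and 9, and its shared effect was 1.68 (SE 0.510, edgeR adjusted p = 0.157). At day 3 only Ak4 was at least 2-fold higher and only Ak5 lower, beside 3.80% and 12.1% of all genes. At day 9 none of the 6 was 2-fold different, beside 1.12% higher and 8.74% lower. Of 7 genes of mitochondrial content 0, 1 and 0 were higher by FGF8 at day 0, 3 and 9 and 0 were lower, beside the 7.27%, 3.80% and 1.12% of all genes higher, with medians of 0.19, 0.87 and 0.39. Cs, citrate synthase, had 5314, 45038 and 104114 normalized counts untreated and 6070, 89318 and 139225 after FGF8, and Tfam, which packages mitochondrial DNA, was higher after FGF8 by 0.64, 0.82 and 0.39.

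**Figure D4:**
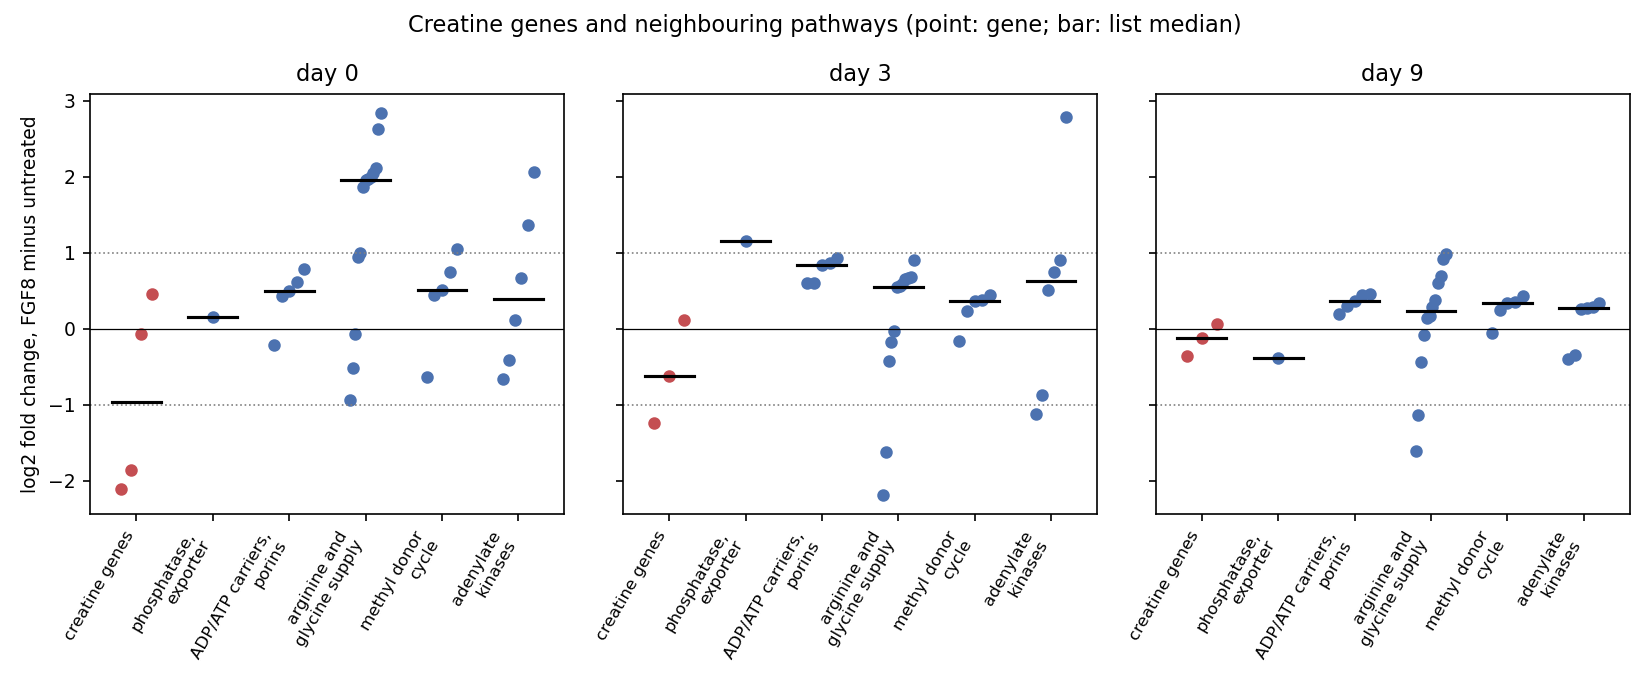
Log2 fold change of FGF8-treated against untreated cells (vertical axis) for each gene whose pair mean reached 20 normalized counts, at day 0, 3 and 9, with the creatine genes in red, the genes of 5 neighbouring lists in blue and list medians as bars. At day 0 the median is -0.97 over 4 creatine genes and 1.96 over 13 genes of the arginine and glycine supply list. At day 9 they are -0.12 over 3 and 0.23 over 12, so the genes behind a median differ between days.

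The genes whose log2(normalized count + 1) followed a member most closely over the 6 libraries were sought among those averaging 100 normalized counts or more, 11381 of them for Gatm and 11380 for the other members. For Ckb they were Gmppa (Pearson r = 0.998), Tpra1 (0.995) and Per3 (0.993). Gmppa had 1124, 1788 and 2125 normalized counts untreated and 629.9, 1401 and 2225 after FGF8, so its range was narrower than that of Ckb. For Slc6a8 they were Runx2 (0.999), Tbc1d9b (0.994) and Inpp5f (0.993). Runx2, a transcription factor, had 819.6, 535 and 418 untreated and 1118, 208 and 358 after FGF8, the same order of libraries as Slc6a8. For Gatm they were Spg21 (0.992), Hddc3 (0.991) and Hspa4l (0.991), and for Gamt Zfp235 (0.985), Daxx (0.974) and Tbk1 (0.974). Over all genes compared, 8 had an r over 0.99 with Ckb, 5 with Slc6a8, 5 with Gatm and 0 with Gamt. By rank, 82 genes had the same order of libraries as Ckb, 139 the same as Slc6a8, 51 the same as Gatm and 6 the same as Gamt. The points share the day and the treatment, and no p-value was computed.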

How the data were processed

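The authors trimmed the reads of each library with Trim Galore, used HISAT2 to align them to the mouse genome (mm39, GRCm39) and featureCounts to count reads per gene. The deposited values are these raw counts. The annotation, the strand setting and the treatment of multimapping reads are not given in the sources used here. RNA came from a stranded mRNA kit with paired-end reads. The label of the growth protocol describes primary white preadipocytes, whereas titles and cell type labels name immortalized brown cells, which were followed here.

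Counts were divided by DESeq2 (1.42.0) size factors over the 6 libraries. Fold changes are differences of log2(normalized count + 1), and fold levels are ratios of normalized counts. Intervals are 95% Clopper-Pearson intervals of the ratio of 2 counts, and the floor is 3 counts. The tests used edgeR (4.0.16, R 4.3.3, with glmQLFit and glmQLFTest, TMM, filterByExpr, additive model of day and treatment, Benjamini-Hochberg, adjusted p under 0.05). An SE given with an edgeR value is the absolute log2 fold change divided by the square root of the F statistic. Only the test of the shared FGF8 effect was also run on simulated data, which held no effect of day. The tests between days were not run on simulated data. Nothing says that libraries came from separate cultures, and no condition had a repeat library, so no p-value measures a spread between repeats. The p-values are set against what the additive model leaves over. That includes any FGF8 effect that differs between days and any day effect that differs between the groups.

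Promoters were read from GRCm39. Transcripts were compared with BLAST (2.17.0): processed copies of Ckb (Gm12892, 96.8% identity over 1149 bases; Ckb-ps1; Ckb-ps2) are not among the listed genes, so reads they share with Ckb were either counted for Ckb or not counted, and Ckmt1 and Ckmt2 share 76.1% over 1078 bases. Of the symbols, 23897 (91.0%) matched GENCODE M39. Named were all 7 members, for each member averaging 20 normalized counts or more the 3 genes with the highest Pearson r, and for each list the 2 genes with the largest shared FGF8 change, plus Alpl, Slc25a4, Ucp1 and Adipoq. Genes that overlap a member were named for their position, though not all of them were discussed. Strc, with 0 to 4 counts, overlaps 12.2% of the Ckmt1 canonical transcript. Gm61844, not among the listed genes, overlaps 6.86% of that of Slc6a8. Other genes of a list were named after their values were seen. The members and the lists were chosen with earlier results of these data known.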

Additional observations from a re-analysis of the deposited data

Results flagged for a closer look

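Slc6a8 differed between FGF8-treated and untreated cells in opposite directions on different days. Its log2 fold change was 0.46 at day 0 and -1.24 at day 3, and 0.46 at day 0 against -0.12 at day 9, each with a counting interval that leaves out 0. No test of these differences was possible: each condition had 1 library and the additive model left no replicate for an interaction.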

How the results depend on the processing

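No paired analysis was possible because each condition has 1 library; the day block in the edgeR fits pairs libraries by day, not by replicate. Member differences of at least 2-fold between FGF8 and untreated, 3 over the 3 days, became 5 with no filter on low counts and 1 with a 4-fold rule, and those between days, 13 over the 6 comparisons, became 20 and 7. Genes called for the shared FGF8 effect, 185, became 1680 with DESeq2, 110 with DESeq2 size factors in edgeR, 419 with no filter, 0 without the day block and 0 to 2230 when a day was left out. For day 3 against day 0, the 6707 genes became 4436 without the treatment block and 3894 without day 9, and the 2 members called became 1 each time. For day 9 against day 0, the 2 members became 1 (Ckb) with no filter and 1 (Ckb) without the block, and with DESeq2 or without day 3 the 2 called were Ckb and Slc6a8 in place of Ckb and Gatm. For day 9 against day 3, the 10 genes became 1332 with DESeq2, 268 with no filter, 3 without the block and 3043 without day 0, and the members called went from 0 to 2 without day 0. The shared FGF8 effect on Slc6a8 ranged from -0.71 to 0.13 when a day was left out, the latter without day 3 (edgeR adjusted p = 0.859), so its sign rests on the day 3 libraries, and its day 9 against day 3 value to -0.020 without the block. The log2 ratio of Slc6a8 over Ckb per kilobase at day 9 turned from 0.58 to -0.15 untreated and from 0.41 to -0.32 after FGF8 with canonical transcript length. Of 160 member fold changes recomputed with other scalings and pseudocounts, 153 moved by less than the reach of their counting interval and 7, all of Slc6a8, by more, and none whose interval leaves out 0 changed sign. The cause of these changes was not tested. Ckm, Ckmt2 and Ckmt1 were too shallow for any call.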
